A study of Mus musculus with 4 samples.

Results

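Of the 20943 H3K9ac differential peaks held in the deposited list, 5572 (26.6%, exact 95% interval 26.0 to 27.2%) lay in chains of exactly 2 touching peaks. A chain was defined as a run of listed peaks in which each peak started on the base after the previous one ended, and the 2786 runs with exactly 2 peaks were kept. The remaining peaks were 13372 standalone peaks, which touched no other, and the members of 628 chains of 3 to 6 peaks. In all 2786 chains, 1 member was listed as higher in chronic intermittent hypoxia (CIH) and its partner as higher in room air (RA), against a background of 45.4% of all listed peaks with the CIH direction and 54.6% with the RA direction. Touching neighbours with a shared direction were listed nowhere, so nothing is read from the opposition itself.

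The cells were macrophages from the aorta of C57BL/6J mice, profiled by ChIP-Seq (sequencing of chromatin fragments captured with an antibody to a histone mark) after 20 weeks of exposure. During the light phase, the CIH group breathed 6.1% O2 for 90 s and then 21% O2 for 90 s in a repeating cycle, and the RA group was kept at 21% O2 in matching cages. Each mark, H3K9ac and H3K27me3, had 1 library per exposure, with no input library among the samples held here and no replicate, so that no p-value was computed and every statement compares 2 libraries. The age of the animals is not given in the labels, few cells were available per mouse, and cells were isolated with magnetic beads. The list carried a position on mouse build mm9, a direction and a constant score of 1000 for each peak, with no level in either library. Sequencing yields stated by the study were larger for CIH than for RA with both marks, read totals are not used here, and the part of this difference in the results was not tested. Intervals are exact Clopper-Pearson 95% intervals, cover counting of listed peaks only, and are too narrow where neighbouring peaks are not independent. As the list holds no levels, the identity of the cells could not be checked against markers. By gene name, Mertk was the only 1 of 24 macrophage identity genes with a peak in the part of the authors' table of selected peaks held here. None of 16 marker genes of other aortic cell types had one. Only 610 genes in all had a peak there, and such peaks are differences and not levels. Counts this small cannot tell cell types apart, and nothing is read from them.

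H3K9ac is an acetylation of the histone H3 tail found at active promoters and enhancers, where it is placed by acetyltransferases and read by proteins that help to start or extend transcription. At an active promoter the mark flanks the nucleosome-poor stretch around the transcript start and often extends into the gene body. H3K27me3, a methylation set by Polycomb complexes, is typical of silenced genes. In a touching pair, the list assigns adjoining stretches to opposite exposures, on a grid of 50 bp.

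Sequences on the upstream side of transcript starts are shown for 3 chains in which the shared boundary lay before a RefSeq start, because they show the bases beside the gene on the far side of the boundary. Each begins in the second member of its chain, runs 5′ to 3′ on the plus strand of mm9 and stops before the first base of the gene in RefSeq, and capitals mark the GC box GGGCGG or the CCAAT box on either strand. The Klhl12 stretch (chr1:136352051-136352071) and the Arnt stretch (chr3:95238251-95238288) begin on the first base after the boundary, and the Focad stretch (chr4:87740224-87740523) further into the second member.
Klhl12: aacccaggagaggcCCGCCCc
Arnt: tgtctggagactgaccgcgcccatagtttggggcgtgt
Focad: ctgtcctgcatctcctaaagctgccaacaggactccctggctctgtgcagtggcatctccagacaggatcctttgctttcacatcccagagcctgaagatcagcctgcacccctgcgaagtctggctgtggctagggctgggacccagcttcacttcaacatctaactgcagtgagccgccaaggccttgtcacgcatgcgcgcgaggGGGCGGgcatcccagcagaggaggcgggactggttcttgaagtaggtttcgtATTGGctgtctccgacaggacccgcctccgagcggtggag
Klhl12, an adaptor of a cullin ubiquitin ligase, had its first base 22 bp past the boundary and, 58 bp past it, the start used in the RefSeq promoter table, with CIH on the upstream side and RA on the gene side. Arnt, the partner of the hypoxia-inducible factors on DNA, had its first base 39 bp and its promoter table start 62 bp past the boundary, with RA upstream and CIH on the gene side. In the chain of Focad, a focal adhesion protein gene, these lay 324 and 334 bp past the boundary and the gene side was again higher in CIH. The Klhl12 and Arnt chains thus had opposite orders, each with a start less than 100 bp past the boundary. Stretches of the same kind were obtained at Tpr and 2900024J01Rik and are not shown. Their gene side was higher in CIH, as at Arnt and Focad. The boundary also lay upstream of other plus-strand starts in second members, for which no stretch was obtained. There the gene side was higher in RA at Dph5, Camk2d and Cyb5rl and in CIH at Dynlrb1. Klhl12 was thus not the only such start on an RA side.

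The order of the members along the chromosome was uneven. Counting from the low to the high coordinate, the member higher in CIH came first in 1805 chains (64.8%, 63.0 to 66.6%) and the member higher in RA in 981 (35.2%). Coordinates run in 1 direction along the reference whatever the strand of the genes, so the order carries no upstream or downstream sense by itself. The order was seen on every autosome, with CIH first in more than 50% of the chains on all 19. It ran from 56.5% on chromosome 19 to 76.7% on chromosome 3, and the interval stood above 50% on 15 of the 19. On chromosome X, 19 of 30 chains had CIH first (63.3%, 43.9 to 80.1%), and chromosome Y held 1 chain. Chains took up a similar share of the listed peaks throughout the autosomes, from 22.4% to 30.5%.

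**Figure D1:**
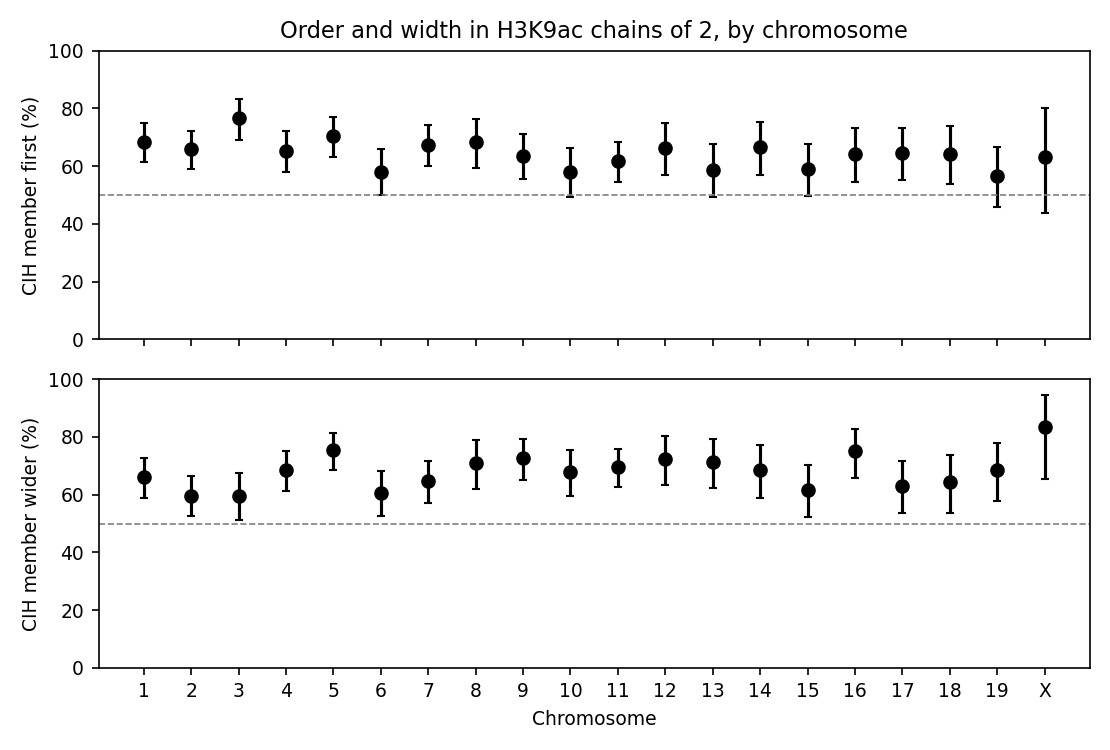
Percentage of chains with the CIH member first (upper panel) and with the CIH member wider (lower panel) on each chromosome, with exact 95% intervals as bars and 50% as a dashed line. All 19 autosomes lie above the line in both panels, with the interval clear of it on 15 for order and on 19 for width.

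Touching neighbours were set beside neighbours with a gap, taking only those of opposite direction. Over every touching pair in the list, chains of 3 or more included, CIH came first in 2504 of 4157 pairs (60.2%, 58.7 to 61.7%). At a gap of 50 bp, which is 1 step of the grid on which peaks were placed, the figure was 5 of 13 (38.5%, 13.9 to 68.4%). Gaps of 100 to 500 bp gave 46.9% of 96 pairs (36.6 to 57.3%), 550 to 2000 bp gave 47.4% of 135 (38.8 to 56.2%), above 2000 and up to 20000 bp gave 46.2% of 1383 (43.6 to 48.9%) and wider gaps 44.4% of 6411 (43.1 to 45.6%). A majority with CIH first was listed where the peaks touched and in none of the 5 classes with a gap. Along a chromosome, switches from CIH to RA and from RA to CIH must alternate, so over all gaps their numbers are nearly equal. A majority at touching pairs thus requires a minority over the gapped pairs together, which are no independent comparison. The few neighbours with small gaps mostly shared a direction. Of 42 at 50 bp, 29 were both higher in CIH and 0 were both higher in RA, and of 415 at 100 to 500 bp, 190 were both higher in CIH and 129 were both higher in RA.

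The order also varied with the length of the chain. Among the 622 chains of up to 600 bp in total, CIH came first in 486 (78.1%, 74.7 to 81.3%). The share was 70.0% of the 546 chains above 600 and up to 800 bp, 62.1% of 467 up to 1000 bp, 59.6% of 535 up to 1300 bp and 50.5% of 438 up to 1800 bp (45.7 to 55.2%). The 178 chains over 1800 bp stood at 60.1% (52.5 to 67.4%), so the decline did not continue to the longest class. What sets the order was not tested.

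**Figure D2:**
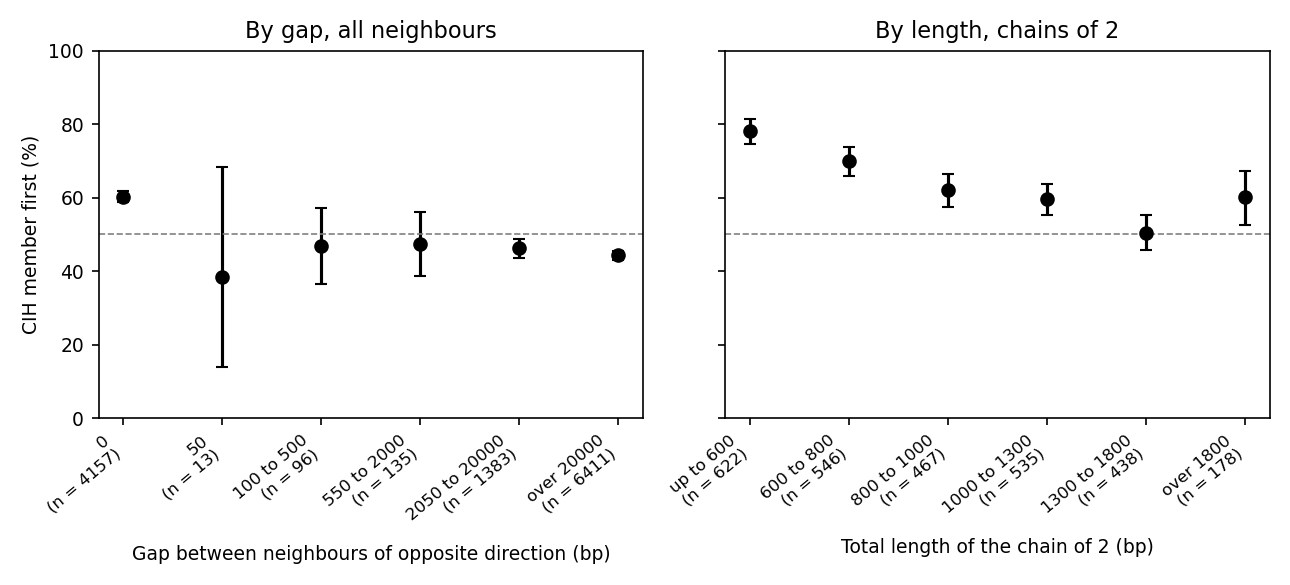
Percentage of opposite neighbours with the peak higher in CIH first, by the gap between them in bp (left, all neighbours in the list) and by total length in bp (right, chains of 2), with exact 95% intervals and 50% as a dashed line. Touching neighbours stand at 60.2% against 38.5 to 47.4% at any gap, and the chains of up to 600 bp stand at 78.1%. Switches of direction alternate along a chromosome, so gapped pairs together must fall below 50% when touching pairs lie above it.

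In width the CIH member was usually the larger. It was wider in 1876 chains (67.3%, 65.6 to 69.1%), narrower in 710 (25.5%) and equal in 200 (7.18%). CIH members had a median of 500 bp (quartiles 300 and 800, range 100 to 3300) and RA members a median of 300 bp (quartiles 250 and 500, range 100 to 2100). Together they covered 1704.8 kb and 1114.5 kb of the 2819.2 kb in chains. Within a chain the CIH member took a median of 60.0% of the length (quartiles 47.8 and 71.4%), and its width exceeded that of its partner by a median of 150 bp. The CIH member was at least 2 times as wide as its partner in 1027 chains (36.9%), and the RA member in 209 (7.50%). Widths over 1000 bp were reached by 365 CIH members (13.1%) and 76 RA members (2.73%).

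**Figure D3:**
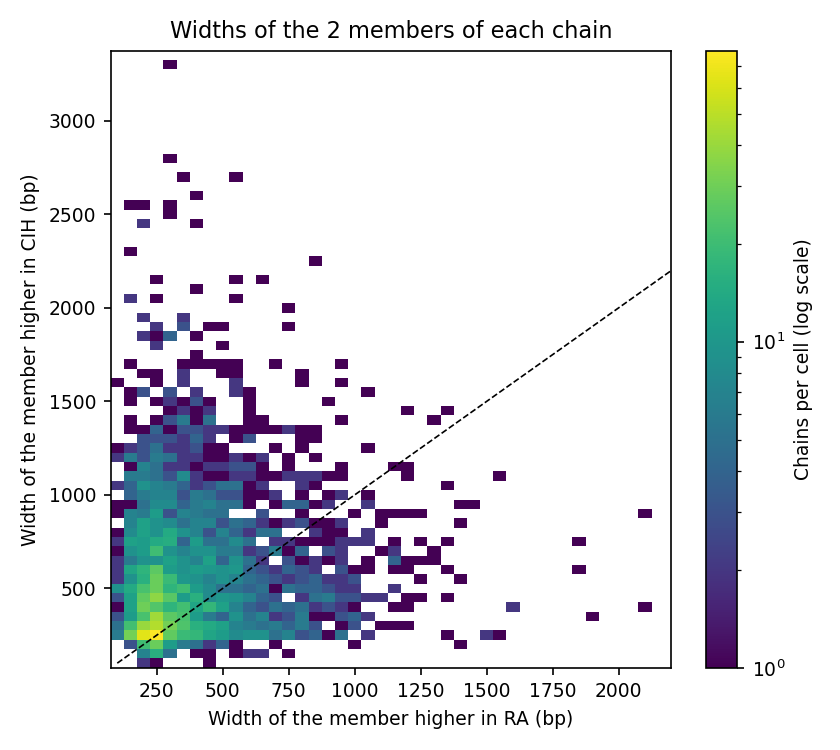
Width in bp of the member higher in CIH (vertical) against that of the member higher in RA (horizontal), with the colour giving the number of chains per cell of 50 by 50 bp on a log scale and the dashed line marking equal width. Most chains lie above the line, and the most frequent combination is 250 bp with 250 bp (78 chains).

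The widths of the partners were nearly unrelated, with a Spearman rho of 0.13 and a Pearson r of 0.07 over the 2786 chains, given as a description since partners share a boundary and both libraries. The commonest combination, 250 bp on each side, occurred in 78 chains, followed by 250 bp in CIH with 200 bp in RA in 64. Most chains were short, with a median total length of 900 bp (quartiles 650 and 1300, range 300 to 3600). Both members were at most 250 bp wide in 257 chains (9.23%).

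Standalone peaks had the same order of widths, the 5625 of the CIH direction having a median of 700 bp and the 7747 of the RA direction 350 bp. Members of chains of 3 or more had medians of 500 and 300 bp, as in the chains of 2. Of the CIH members, 448 of 2786 (16.1%, 14.7 to 17.5%) were at most 250 bp wide, against 94 of 5625 standalone peaks (1.67%, 1.35 to 2.04%). For RA the figures were 1126 of 2786 (40.4%, 38.6 to 42.3%) and 2535 of 7747 (32.7%, 31.7 to 33.8%). These intervals do not overlap for either direction, and no test between the sets was run.

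Order was largely separate from which member was wider, but it varied with the size of the difference in width. With CIH first, the CIH member was wider in 66.0% of chains (63.8 to 68.2%), and with RA first in 69.8% (66.9 to 72.7%). Seen the other way, CIH came first in 63.5% of the chains with a wider CIH member (61.3 to 65.7%) and in 64.9% of those with a wider RA member (61.3 to 68.4%). Chains with members of equal width had CIH first in 76.5% (70.0 to 82.2%). The share fell off on both sides of equality, to 55.2% of 531 chains (50.8 to 59.5%) where CIH was wider by over 500 bp and to 54.5% of 77 (42.8 to 65.9%) where RA was. RA-first chains were the longer ones, with a median of 1050 bp (1000 to 1100) against 850 bp (800 to 850).

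**Figure D4:**
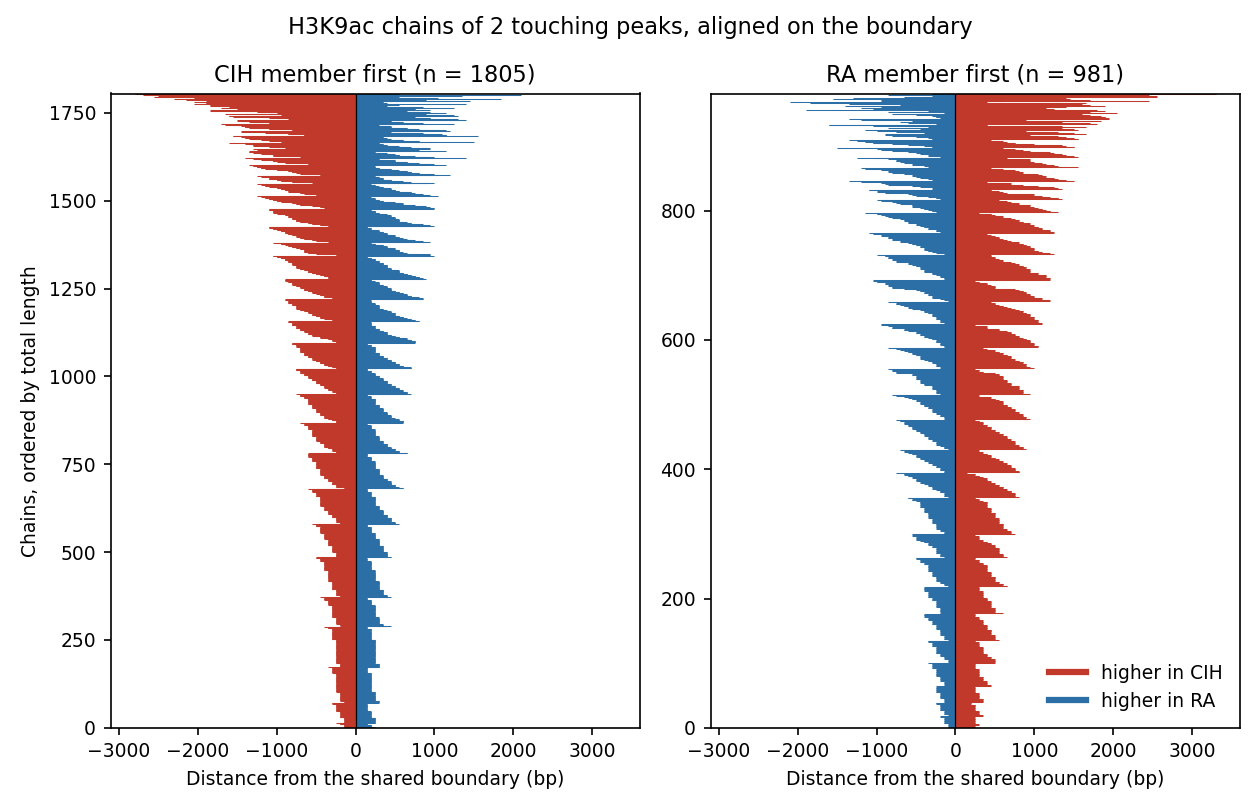
Every chain drawn to scale around its shared boundary, with distance from the boundary in bp on the horizontal axis and chains stacked by total length, for the 1805 with CIH first (left) and the 981 with RA first (right). Red stretches (higher in CIH) reach further from the boundary than blue ones (higher in RA) in both panels, with medians of 450 against 300 bp on the left and 600 against 350 bp on the right.

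At the extremes, the longest chain (chr12:110030501-110034100) had an RA member of 300 bp followed by a CIH member of 3300 bp, the widest member of any chain of 2. The next were chr4:109337051-109340300, with 2700 bp in CIH and then 550 bp in RA, and a tie at 3100 bp between chr5:20876451-20879550, with 2800 bp in CIH and then 300 bp in RA, and chr14:70976151-70979250, with 850 bp in RA and then 2250 bp in CIH. Another lopsided chain, chr1:51533251-51535950, had 2550 bp in CIH and 150 bp in RA. In the opposite sense, chr1:87790351-87792850 had 2100 bp in RA before 400 bp in CIH, chr6:54541551-54543800 had 1900 bp in RA before 350 bp in CIH, and chr14:56442601-56444400 had 250 bp in CIH before 1550 bp in RA. The shortest were 2 chains of 300 bp (chr1:37161751-37162050 and chr7:139515251-139515550), each with 100 bp in CIH before 200 bp in RA, and 17 chains followed at 350 bp, 12 with CIH first and 5 with RA first, among them chr1:94275951-94276300 with 150 bp in CIH before 200 bp in RA. Large imbalances were therefore listed in both directions, and the difference CIH minus RA ran from -1700 to 3000 bp.

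Chains mostly stood apart from other listed peaks, with a median of 28700 bp to the nearest one. Over the whole list, 13264 pairs of neighbouring peaks lay more than 20000 bp apart. The same distances were not computed for standalone peaks, so the spacing is not read as particular to chains. Another peak lay within 1 kb of 204 chains (7.32%) and within 10 kb of 682 (24.5%), and 383 (13.7%) had none within 100 kb. The next peak on the CIH side, where within 10 kb, was also higher in CIH in 197 of 356 cases (55.3%, 50.01 to 60.6%). Of all listed peaks, 45.4% had that direction. On the RA side the next peak was also higher in RA in 217 of 377 (57.6%, 52.4 to 62.6%). The 54.6% of all listed peaks with the RA direction lies inside that interval. There were 24 cases of neighbouring chains within 3 kb. Of these, 12 turned their CIH members towards each other, 6 their RA members, and 6 had the same order, 4 with CIH and 2 with RA in front. In chains of 3, CIH stood on both outer sides in 353 and RA in 174, and chains of 4 began with CIH in 58 and with RA in 30.

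Few differential peaks of the repressive mark lay on a chain. Regions with this mark but no listed difference were not compared. Of 146 H3K27me3 differential peaks, 33 (22.6%) shared bases with an H3K9ac peak. Chains of 2 held 26.6% of the listed H3K9ac peaks. The 33 were 31 on a standalone peak and 2 on a chain (1.37% of the 146). The first, at chr12:106674201-106674600, was higher in RA and covered 150 bp of the CIH member and the whole 250 bp RA member of a chain. The second, at chr17:44141601-44141900, was higher in CIH, covered 50 bp of the RA member and the whole 250 bp CIH member, and was paired by the authors with Enpp5 and Rcan2, the latter an inhibitor of calcineurin. In both places the H3K27me3 peak had the same direction as the H3K9ac member it covered in full, and nothing is read from 2 cases.

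Genes were available for part of the chains. The authors paired genes with selected peaks, those with the most reads in each exposure, and the part of their table held here covers 742 rows and 483 H3K9ac peaks, all with the direction given in the list. Of these peaks, 140 were members of 131 chains and were paired with 195 genes. Within the span of peak names held, 713 chains stood complete, and both members had been selected in 9 of them, 1 member in 122 (17.1%) and neither in 582 (81.6%). Where 1 member was selected, it was the wider one in 99 of 122 (81.1%, 73.1 to 87.7%), its median width being 900 bp and that of its partner 450 bp, and the RA member more often than the CIH member, which was selected in 41 (33.6%, 25.3 to 42.7%). Selection went by reads, and how far that sets these shares was not tested. Their median length was 1450 bp, CIH came first in 67 of 131 (51.1%, 42.3 to 60.0%) and CIH was wider in 69 (52.7%, 43.8 to 61.4%).

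All 9 chains with both members selected had a gene in common between the members, and CIH came first in 4. In all 9 the CIH member was the wider (100%, 66.4 to 100%), against 67.3% of all chains. The 9 were picked by reads, and how far that sets this share was not tested. Malat1 and Neat1, neighbouring genes of nuclear long non-coding RNAs, were paired with a chain at chr19:5802751-5804400 that had 600 bp in RA before 1050 bp in CIH. Jun, a subunit of the transcription factor AP-1, had 800 bp in RA before 1050 bp in CIH (chr4:94717451-94719300), and its antisense gene Junos was paired with the same peaks. Slc30a7, a zinc transporter gene, and Extl2 had 850 bp in RA before 1350 bp in CIH (chr3:115709051-115711250). The largest of the 9, paired with Gm26881 (chr4:43051701-43054350), had 1200 bp in RA before 1450 bp in CIH, and Wars2, which encodes the mitochondrial tryptophan tRNA synthetase, had 900 bp in RA before 950 bp in CIH. With CIH in front were Btaf1, a regulator of the TATA-binding protein (950 and 800 bp), Arl5b, a small GTPase of the Golgi (950 and 850 bp), Thnsl1 (1200 and 650 bp) and Fam198b (600 and 550 bp). In these chains a selected peak of each direction was paired with the same gene. As the members touch, this is not read as a result.

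Of the 610 genes with any held peak, 195 (32.0%, 28.3 to 35.8%) were paired with a chain member, which is the background for the gene groups. Each group had at most 6 genes with a held peak, and none is read as apart from it. By gene group, 3 of 30 hypoxia and vasoactive genes had a chain, out of 5 with any held peak. Arnt had 200 bp in RA before 850 bp in CIH, the latter 4.25 times as wide. Edn2, the vasoconstrictor endothelin 2, had 1250 bp in CIH before 400 bp in RA (chr4:119820601-119822250). Mxi1, a MAX-binding antagonist of MYC, had 350 bp in CIH before 600 bp in RA (chr19:53387651-53388600). The wider member was thus higher in CIH for Arnt and Edn2 and higher in RA for Mxi1.

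Among 29 immediate early and stress transcription factor genes, 5 had a held peak and 2 a chain, which were Jun and Klf9, a Krüppel-like factor, with 250 bp in CIH before 600 bp in RA (chr19:23210151-23211000). Of 34 Toll-like receptor and NF-kB genes, 6 had a held peak and 1 a chain. This was Tank, a TRAF-binding regulator of innate signalling, with 550 bp in RA before 800 bp in CIH (chr2:61431001-61432350). Of 29 TGF-beta signalling genes, Id3, an inhibitor of basic helix-loop-helix factors, had 550 bp in RA before 500 bp in CIH (chr4:135690301-135691350).

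For lipid handling, 1 of 31 genes had a chain in the held part, Rxra, the common partner of the LXR and PPAR nuclear receptors, with 250 bp in CIH before 800 bp in RA (chr2:27654451-27655500), a peak also paired with Col5a1. Abca1, the cholesterol exporter, is known from the peak number in the study's text to lie in a chain of 600 bp in CIH before 350 bp in RA (chr4:53171951-53172900). The peak higher in CIH at Abca1 thus ended on the base before a peak higher in RA. Mertk, the macrophage receptor for apoptotic cells and 1 of 24 identity genes, had 250 bp in CIH before 750 bp in RA (chr2:128524651-128525650). Uchl5, a proteasome-bound deubiquitinase and 1 of 24 ubiquitin and proteasome genes, shared with Rgs2 a chain of 650 bp in CIH before 450 bp in RA (chr1:145624251-145625350). No chain was found for 24 antioxidant genes, of which 4 had a held peak, or for 28 p53 and DNA damage genes, of which 6 did. Against the background of 32.0%, counts this small cannot show a difference. Across the 19 chains named for their genes, CIH came first in 11 (57.9%, 33.5 to 79.75%) and was wider in 14 (73.7%, 48.8 to 90.85%). The shares over all chains, 64.8% and 67.3%, lie inside these intervals. The 14 include all 9 chains with both members selected. Apart from Abca1, genes outside the held part are not analysed here.

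**Figure D5:**
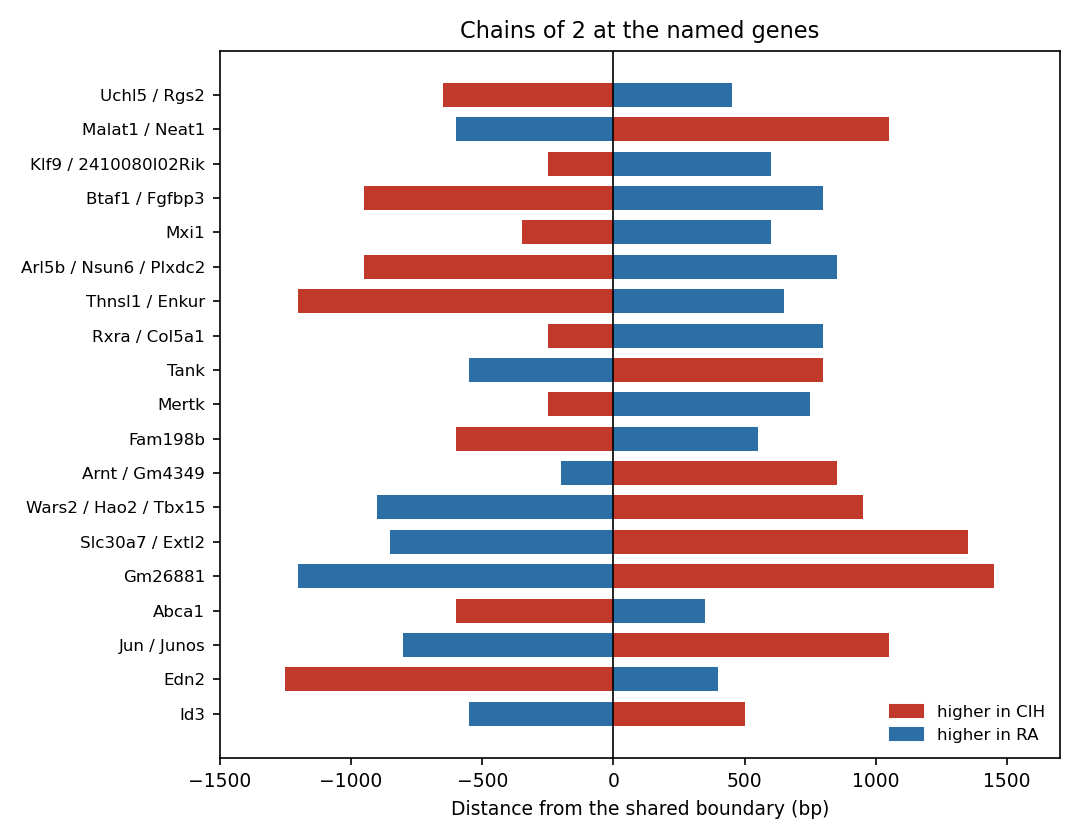
The 19 chains named for their paired genes, drawn to scale around the shared boundary (distance in bp on the horizontal axis, red higher in CIH, blue higher in RA). In 14 of the 19 the red stretch is the longer, with the exceptions Klf9, Mxi1, Rxra, Mertk and Id3. The 14 include all 9 chains with both members selected.

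Transcript starts were placed by matching RefSeq promoter sequences to the first 399 bases of each selected peak, the length held here, so starts further in were not searched. A start was found in 20 of 140 chain members (14.3%, 8.95 to 21.2%) and in 48 of 343 other selected peaks (14.0%, 10.5 to 18.1%). It was found in 11 of 50 CIH members (22.0%, 11.5 to 36.0%) and 9 of 90 RA members (10.0%, 4.68 to 18.1%), intervals that overlap. Several starts in second members lay close to a boundary. The searched bases run from the low coordinate, so a start in a second member could only be found within 399 bp of the boundary. Such closeness follows from the search and is not read as a result. Beside Klhl12 and Arnt, the start of Ipo13, a nuclear import receptor gene on the minus strand, lay 54 bp past the boundary in a CIH member. That of Spata2, also on the minus strand, lay 74 bp past its boundary, again in CIH. A930005H10Rik, on the minus strand too, had a start 77 bp past its boundary in an RA member. For these minus-strand genes the boundary lay downstream of the start. The start of Tpr, a nuclear pore basket protein gene, lay 218 bp into the CIH side, and that of Dph5 201 bp into an RA side. Mrpl37 and Cyb5rl, which start in opposite directions, had starts 121 and 249 bp past 1 boundary, both in the RA member. In other chains the start lay in the first member, such as Copa, a coatomer gene, with a start 941 bp before the boundary in CIH, and Tank, with starts 397 and 342 bp before it in RA. Starts were thus found on the CIH and on the RA side of boundaries.

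Base composition of the members was close to that of other selected peaks. Over their first 399 bases, median GC content was 54.3% in the 42 CIH members and 53.3% in the 74 RA members that were wide enough and had no undetermined base, against 51.9% in 123 and 53.3% in 122 other peaks of the same directions. For the hypoxia response element core, only the form ACGTG was searched, on both strands, and not GCGTG. It was present in 13 of 42 CIH members (31.0%, 17.6 to 47.1%) and 20 of 74 RA members (27.03%, 17.4 to 38.6%). In the other peaks the shares were 32.5% and 27.05%. The AP-1 site TGANTCA was present in 11.9% of CIH members and 6.76% of RA members, against 10.6% and 8.20%, and the ETS motif GAGGAAGT in 0 of 42 and 2 of 74, against 3 of 123 and 2 of 122. GC boxes were found in 33.3% and 36.5% of members and in 33.3% and 33.6% of the other peaks, and CCAAT boxes in 35.7% and 41.9% against 45.5% and 42.6%. The intervals of members and other peaks overlapped for each motif and direction. A motif match is a description of the bases and not of a bound factor.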

How the data were processed

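ChIP-Seq was done on aorta macrophages with 1 library for each of H3K9ac and H3K27me3 in each of CIH and RA. According to the submitters' processing notes, reads were handled on build mm9 with MACS2 2.1.0, BWA 0.7.12, Trimmomatic 0.32, bedtools 2.23.0, Picard 1.121 and SAMtools 1.2, named in no stated order, and the study's methods state that blacklisted and low complexity regions were removed and that calls of more than 1 program were brought together. For each mark, 1 list of differential regions was deposited by the authors on a grid of 50 bp, with a score that is 1000 in every row and was not used. How touching windows were joined is not given in the sources used here. No input library was used here, so enrichment over background could not be checked.

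Direction was read from the list's strand column, minus being higher in CIH, and checked against the held part of the authors' table of selected peaks, from which gene names and peak sequences were taken. Chains were linked at a gap of 0 bp with Python 3.11.15, pandas 2.3.3 and numpy 2.4.6, and intervals came from scipy 1.17.1. The linking was tested on simulated data. RefSeq promoters (GRCm38.p6) were matched by 50 identical bases around the start. Of the 195 genes, 185 were found in RefSeq. No mm9 genome or annotation was used, so exons and introns are not stated.

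Members and gene lists were chosen with earlier results of these data known. Named were chains with both members in the held table, with a gene in 1 of 10 gene lists or with the Abca1 peak, the 3 longest and 3 shortest, the 3 with the largest difference in width each way, and those on an H3K27me3 peak. The authors' counts and p-values, in their table, were not used. Read totals per library were not used, and the study states yields that differ between exposures.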

Additional observations from a re-analysis of the deposited data

How the results depend on the processing

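There were 45 alternatives to the 7 values on the number, order, width and overlap of the chains. Of these, 35 stayed within the counting interval or within 1.5 times the count, 10 moved and 0 reversed. Only the shares for order and for width could be labelled reversed, and the alternatives reuse the same list. Counting every touching pair gave CIH first in 60.2%. Removing peaks under 250 bp before linking left 2154 chains, with CIH first in 62.0%, CIH wider in 61.3%, a median length of 1000 bp, medians of 550 bp for CIH members and 400 bp for RA members, and 1 chain on an H3K27me3 peak, the larger widths following from the removal itself. Requiring a difference of at least 100 bp gave CIH wider in 74.5% of 2220 chains. Leaving out equal widths, which can only raise the share, gave 72.5% of 2586. Chains with no other peak within 10 kb numbered 2104, with 1 on an H3K27me3 peak. No paired analysis was possible because each mark and exposure had 1 library and no result came from a test. With 1 library per group, no correction for depth here and no input used, the values describe the lists and not the exposures.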
